A study of Mus musculus with 42 samples.

Results

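The genes described here are 9 epithelial genes of the kind used to recognise the mammary gland, read in the liver libraries of mice fed either of 2 diets. They were taken by gene name from a list of 6 luminal genes (Epcam, Krt8, Krt18, Elf5, Csn3, and Ltf) and 3 basal genes (Krt5, Krt14, and Krt17), out of 54532 genes in the table. Their levels were read in the 10 of 42 libraries in which Alb, the gene of serum albumin, was under 100 CPM (the count scaled to the library total), and in the other 32 libraries, called liver libraries below. The 10 libraries were selected on their measured Alb level, and the genes were chosen by their measured levels in these same libraries, so the contrast between the 10 and the 32 libraries is a description without a test.

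On mm10 the luminal genes are Epcam (ENSMUSG00000045394, chr17:87635979-87651106), Krt8 (ENSMUSG00000049382, chr15:101996698-102004482), Krt18 (ENSMUSG00000023043, chr15:102028180-102032027), Elf5 (ENSMUSG00000027186, chr2:103411688-103450989), Csn3 (ENSMUSG00000001622, chr5:87925579-87932665), and Ltf (ENSMUSG00000032496, chr9:111019271-111042767). The basal genes are Krt5 (ENSMUSG00000061527, chr15:101707070-101712898), Krt14 (ENSMUSG00000045545, chr11:100203162-100207548), and Krt17 (ENSMUSG00000035557, chr11:100256217-100261029). Krt5 and Krt8 lie in the type II and Krt14 and Krt17 in the type I keratin gene cluster.

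The mammary duct is a bilayered epithelium. Luminal cells line the duct, carry the simple-epithelial keratins Krt8 and Krt18 and the adhesion molecule Epcam, and include progenitors that give rise to the alveolar cells, which make milk proteins during lactation. Basal, or myoepithelial, cells surround them, contract to eject milk, and carry the keratins Krt5, Krt14, and Krt17. In a pubertal female mouse the ducts grow through a fat pad, and no lactation takes place. None of the 9 genes belongs to the mammary gland alone: hepatocytes carry Krt8 and Krt18, bile duct cells carry Epcam, neutrophils carry Ltf, and the basal layer of skin carries Krt5 and Krt14.

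The mice were female C57BL/6NHsd animals (C57BL/6 in the labels) that entered the study at 3 weeks of age and ate AIN93G or a high-fat version of it (HFD) for 3 weeks. Soybean oil gave 16% of the energy of AIN93G and 45% of that of the HFD. For each diet, 3 libraries, each labelled liver and each from 1 mouse, were made every 4 h from ZT 0 to ZT 24, where ZT is the time in hours after lights on. The labels name no transgene or deletion. P-values below measure the spread between these mice.

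The 10 libraries with Alb under 100 CPM were the 3 of AIN93G ZT 16, the 3 of AIN93G ZT 20, 2 of AIN93G ZT 24, and 2 of HFD ZT 24 (replicates 1 and 2 of each ZT 24 group). Their label of liver did not match the defining markers. Alb was 11.2 to 65.7 CPM in them against 73320 to 130500 CPM in the liver libraries, and all 10 hepatocyte markers examined lay below every liver library. All 8 adipocyte markers lay above every liver library, with a summed level of 9872 to 18190 CPM against 13.6 to 87.2 CPM. Total counts were alike, with 15687740 to 21368409 counts in the 10 libraries and 14592481 to 19815356 counts in the liver libraries. Scaling is not neutral between such different RNA pools: the median gene was 0.01 higher in the 10 libraries on the log2 scale with TMM factors and 0.73 higher by library size alone. Levels below are CPM with TMM factors unless stated, and differences between the 10 and the 32 libraries are relative to that shift. In bulk tissue, fewer cells of a type and less RNA per cell cannot be told apart.

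Start-site windows from RefSeq (GRCm38.p6, the mm10 assembly of the counts) were found for 7 of the 9 genes, and 4 of them are shown because their genes are the base of the results below: Epcam for the luminal level, Krt8 and Krt18 for the keratin pair shared with liver, and Krt5 for the basal level. Each runs 5′ to 3′ from 250 bases before to 50 bases after the annotated start.
Epcam, chr17:87635729-87636028, plus strand: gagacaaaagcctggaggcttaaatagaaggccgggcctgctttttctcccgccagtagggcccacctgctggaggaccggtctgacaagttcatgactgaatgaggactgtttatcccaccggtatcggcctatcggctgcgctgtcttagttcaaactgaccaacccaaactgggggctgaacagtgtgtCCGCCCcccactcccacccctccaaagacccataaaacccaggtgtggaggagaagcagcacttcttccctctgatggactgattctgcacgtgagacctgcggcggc
Krt8, chr15:102004293-102004592, minus strand: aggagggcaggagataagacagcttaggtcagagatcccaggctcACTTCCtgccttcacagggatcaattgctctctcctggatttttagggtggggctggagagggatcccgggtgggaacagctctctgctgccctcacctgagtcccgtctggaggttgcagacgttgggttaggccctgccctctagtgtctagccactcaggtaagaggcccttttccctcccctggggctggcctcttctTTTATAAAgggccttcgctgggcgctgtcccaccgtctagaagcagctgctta
Krt18, chr15:102027966-102028265, plus strand: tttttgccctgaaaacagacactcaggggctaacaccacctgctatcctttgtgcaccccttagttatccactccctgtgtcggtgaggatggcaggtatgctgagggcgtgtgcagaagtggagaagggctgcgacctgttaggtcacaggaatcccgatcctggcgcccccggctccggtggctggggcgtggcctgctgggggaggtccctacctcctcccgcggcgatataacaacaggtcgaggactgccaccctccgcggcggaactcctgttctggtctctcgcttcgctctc
Krt5, chr15:101712856-101713155, minus strand: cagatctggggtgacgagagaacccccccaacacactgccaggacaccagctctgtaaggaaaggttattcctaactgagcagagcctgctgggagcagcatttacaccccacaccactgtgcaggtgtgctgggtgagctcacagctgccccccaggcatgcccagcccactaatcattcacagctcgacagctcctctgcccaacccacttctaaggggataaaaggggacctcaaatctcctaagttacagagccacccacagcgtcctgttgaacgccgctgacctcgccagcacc
Capitals mark matches, on either strand, to any of 4 motifs. The TATA box was searched as TATAAA. A GC box was searched as GGGCGG. The palindrome bound by STAT factors was searched as TTCNNNGAA. An ETS core was searched as GGAAGT. The Krt8 window held the TATA box on both strands, in overlapping matches at the annotated start, and the ETS core on the reverse strand, beginning 205 bases before it. The Epcam window held the GC box on the reverse strand, 58 bases before the start, and the Krt18 and Krt5 windows held none of the 4. Among 32544 different windows of this length, 13.6% held the TATA box, 35.9% the GC box, 8.33% the STAT palindrome, and 23.7% the ETS core. Krt8 and Krt18, which are keratin partners, lie close to each other on chromosome 15, and Krt5 lies on the same chromosome. The windows of Elf5 (2 starts), Ltf, and Krt14 held none of the 4 motifs either. The annotated start lay 1518 bases inside the gene of the count table for Krt14, 410 and 12380 bases inside for Elf5, and 140 bases inside for Krt8. For the other windows it lay within 36 bases of the gene's 5′ end. No window was found for Csn3 and Krt17.

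Epcam, the gene of the epithelial cell adhesion molecule, was 7.38 CPM in the lowest, 57.8 in the median, and 146 in the highest of the 10 libraries. In the liver libraries it was 0.397, 1.51, and 3.50 CPM. The groups did not overlap, and the medians differed 38.2-fold. Of the 9 genes, 5 (Epcam, Csn3, Ltf, Krt5, and Krt17) lay above every liver library in all 10 libraries, where 16.4% of the 13394 genes that averaged 25 or more counts in the 42 libraries did the same and 16.8% lay wholly below. Elf5 and Krt14 lay above every liver library in 9 of 10. By library size alone, or without AIN93G ZT 20 replicate 1, the count was 7 of 9.

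Krt8 and Krt18 differed from the other genes in that the liver libraries held both at high levels. Krt8 was 21.2, 103, and 237 CPM (lowest, median, and highest) in the 10 libraries and 136, 181, and 218 CPM in the liver libraries. Krt18 was 15.7, 97.5, and 200.3 CPM against 71.0, 128, and 190 CPM. The groups overlapped for both genes, with 1 of the 10 libraries above every liver library for each and 7 (Krt8) or 3 (Krt18) below every one. By library size alone, 3 lay above for each and 4 (Krt8) or 1 (Krt18) below. The median of Krt8 in the 10 libraries was 0.571 times that in liver with TMM factors and stayed lower by library size alone (147 against 162 CPM), whereas that of Krt18 was 0.759 times that in liver and turned higher by library size alone (132 against 113 CPM). The ratio of Krt18 to Krt8, which no scaling changes, was 0.731 to 1.22 in the 10 libraries and 0.470 to 0.968 in liver, with medians of 0.792 and 0.730.

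**Figure D1:**
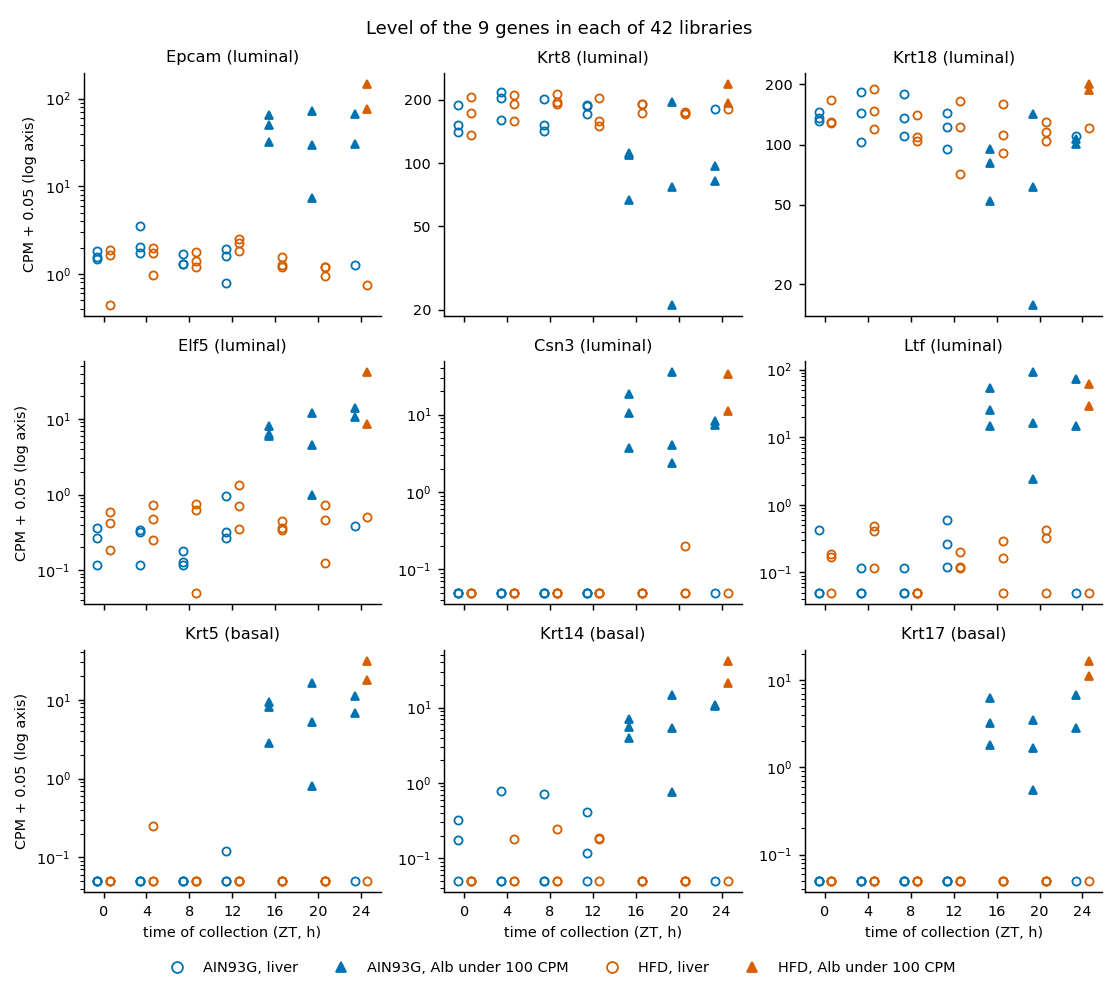
Level of each gene in CPM plus 0.05 (log axis) against time of collection (ZT, h), with 1 point per library, blue for AIN93G, orange for HFD, open circles for the 32 liver libraries, and filled triangles for the 10 libraries with Alb under 100 CPM; points at 0.05 are counts of 0. Epcam lies at 7.38 CPM or more in every triangle and at 3.50 CPM or less in every circle, whereas circles and triangles overlap for Krt8 and Krt18.

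Elf5, an ETS transcription factor of luminal progenitors, was 0.927, 8.21, and 41.3 CPM (lowest, median, and highest) in the 10 libraries. It was 0, 0.300, and 1.30 CPM in liver, with over 3 counts in 21 of 32 libraries and 19 counts in the highest. The medians differed 27.4-fold, and the lowest of the 10 libraries lay within the liver range.

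Csn3, the gene of kappa-casein, which keeps casein micelles in suspension, was 2.35, 9.23, and 34.9 CPM in the 10 libraries. It had no count in 31 of 32 liver libraries and 2 counts in the other. Its median was 45.5-fold the 3-count floor of a liver library, and so at least 45.5-fold the liver median. Ltf, the gene of the iron-binding milk and granule protein lactoferrin, was 2.35, 27.2, and 91.0 CPM in the 10 libraries and 0, 0.0656, and 0.541 CPM in liver, where the highest library had 8 counts. Its median was 134-fold the same floor, and so at least 134-fold the liver median. Such floors and bounds cover counting error only.

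The basal keratins Krt5, Krt14, and Krt17 were nearly absent from the liver libraries. Krt5, the type II partner of the basal pair, was 0.749, 8.69, and 31.5 CPM in the 10 libraries and had no count in 30 liver libraries. Krt14, its type I partner, was 0.713, 8.74, and 41.9 CPM, and had no count in 22 liver libraries but 11 counts in the highest, which placed the lowest of the 10 libraries within the liver range. Krt17, a type I keratin of basal cells and skin appendages, was 0.499, 3.30, and 16.6 CPM, with 0 counts in all 32 liver libraries. With liver taken at the floor, the medians were at least 42.8-fold (Krt5), 43.1-fold (Krt14), and 16.2-fold (Krt17) the liver median.

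Per kilobase of the gene length in the table, the order of the medians in the 10 libraries was Krt18 (67.8 CPM per kb), Krt8 (52.7), Epcam (28.3), Ltf (7.89), Krt14 (4.97), Krt5 (3.96), Csn3 (2.22), Krt17 (2.13), and Elf5 (1.40). The ranges over libraries of every pair of neighbours in this order overlapped. The order also depends on the length used. It was 5877 bases for Elf5 and 4152 for Csn3, whose longest coding transcripts have 2532 and 1596 bases, so both would stand higher per kilobase of transcript. In liver the order opened with Krt8 (92.4 CPM per kb) and Krt18 (89.4), and Epcam followed at 0.742.

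Some reads of the keratins could belong to other genes. Of the 50-base stretches of the longest coding transcript, 29.7% for Krt8, 14.4% for Krt14, 12.2% for Krt5, and 3.99% for Krt17 were also found in transcripts of other genes, against 0.72% for Krt18 and 0 for the other 4. Most of the Krt8 share lay in Krt8-ps, which had 0 to 10 counts in the 10 libraries. Krt6a, which shares sequence with Krt5, had a median of 3 counts and a highest of 123 counts there, and Krt16, which shares sequence with Krt14, had at most 1 count. Krt14 and Krt17 also share stretches with each other, and had 20 to 995 and 14 to 395 counts in the 10 libraries, so some reads of either could belong to the other. Krt8 also overlaps Gm36026 on the opposite strand, and the library kit does not mark strand, so reads of these 2 genes cannot be told apart. Gm36026 had at most 3 counts in any library.

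The 10 libraries differed widely among themselves. The highest library exceeded the lowest 11.2-fold for Krt8, 12.7-fold for Krt18, 14.9-fold for Csn3, 19.8-fold for Epcam, 33.3-fold for Krt17, 38.7-fold for Ltf, 42.1-fold for Krt5, 44.6-fold for Elf5, and 58.7-fold for Krt14. The SD of log2 CPM was 1.00 (Krt8) to 1.55 (Ltf), where the median gene had an SD of 0.34. AIN93G ZT 20 replicate 1 was lowest for all 9 genes. HFD ZT 24 replicate 2 was highest for Epcam, Krt18, Elf5, Krt5, Krt14, and Krt17, HFD ZT 24 replicate 1 for Krt8, and AIN93G ZT 20 replicate 2 for Csn3 and Ltf.

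**Figure D2:**
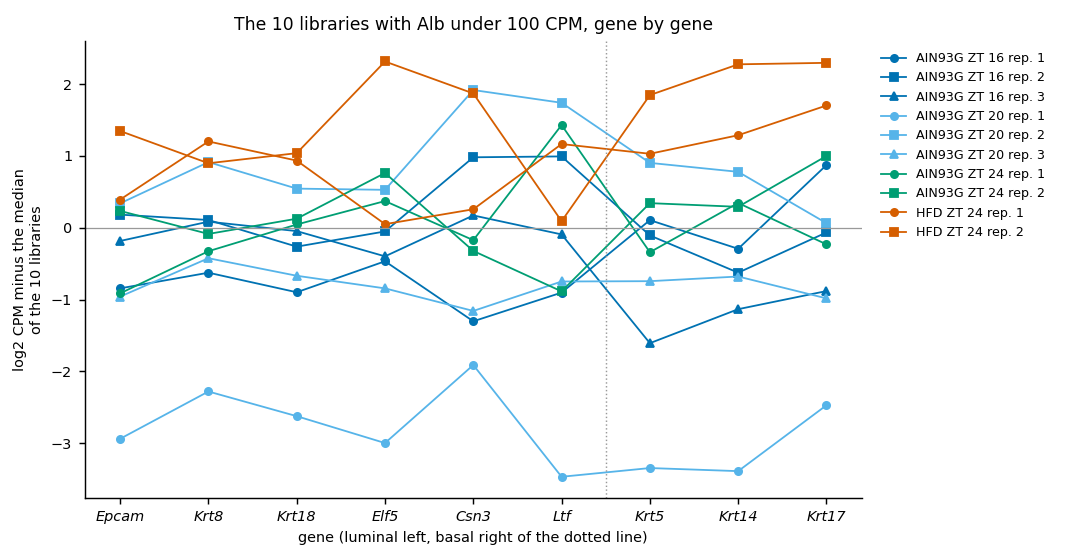
Log2 CPM of each gene in each of the 10 libraries with Alb under 100 CPM, minus the median of the 10, with 1 line per library and colours for the 4 groups. The line of AIN93G ZT 20 replicate 1 lies lowest at every gene, and the lines of the other libraries cross most at Csn3 and Ltf.

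The libraries that were high for 1 gene were mostly high for the others. Over the 10 libraries, Krt8 and Krt18 had a Pearson r of 0.968 in log2 CPM (Spearman rho 0.855), and Krt5 and Krt14 had an r of 0.968 (rho 0.927). Without the 2 libraries farthest from the median of the first gene, r was 0.889 and 0.881. These are descriptions over 10 points that share TMM factors, and no p is given.

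The mean of the standardised luminal genes and that of the basal genes, called the luminal and the basal profile, had an r of 0.875 (rho 0.782). This relation weakened to 0.723 without AIN93G ZT 20 replicate 1 and to 0.578 without the 2 farthest libraries, so a part of it rested on those. Ltf moved least with the rest. Its lowest r with a member was 0.497 with Krt17 (rho 0.273, and r of -0.012 without AIN93G ZT 20 replicate 1), and its highest was 0.830 with Krt8. With the luminal profile, of which it is 1 of 6 genes, its r was 0.855, the lowest of the 6. Without the 2 farthest libraries Elf5 was lower (0.711 against 0.784 for Ltf).

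**Figure D3:**
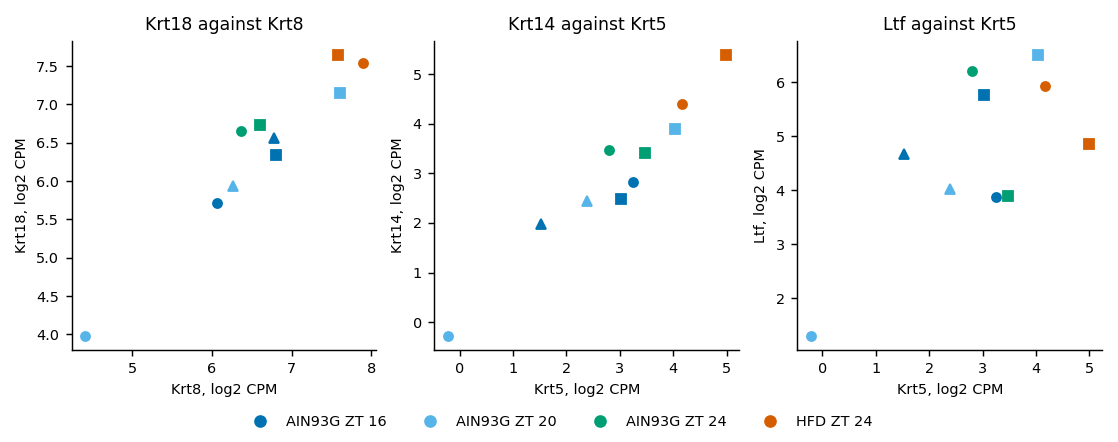
Log2 CPM of Krt18 against Krt8, Krt14 against Krt5, and Ltf against Krt5 in the 10 libraries with Alb under 100 CPM, with 1 point per library, colours for the 4 groups, and marker shapes for replicates within a group. The points of both keratin pairs lie near a line (r of 0.968 each), whereas those of Ltf and Krt5 scatter apart from AIN93G ZT 20 replicate 1 at the lower left (r of 0.689, and 0.257 without it).

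Over all 10 libraries, the make-up of the set, with Epcam as the base, varied less than its level. A part of this rested on AIN93G ZT 20 replicate 1, which was lowest in level for every gene but set no extreme of these ratios. The ratio of Krt8 to Epcam was 1.32 to 3.15 over the 10 libraries, a 2.40-fold range, and that of Krt18 to Epcam had a 2.65-fold range. Elf5 had a 3.10-fold, Csn3 a 4.45-fold, Krt14 a 4.72-fold, Krt5 a 5.33-fold, and Krt17 a 5.59-fold range. The ratio of Ltf to Epcam ran from 0.198 in HFD ZT 24 replicate 2 to 2.42 in AIN93G ZT 24 replicate 1, a 12.2-fold range. Without AIN93G ZT 20 replicate 1, the level of Ltf ran from 14.5 to 91.0 CPM, a narrower fold range than that of its ratio. For the other genes the level still had the wider range without that library. The 3 basal genes had their lowest ratio to Epcam in AIN93G ZT 16 replicate 3 (Krt5 0.0549, Krt14 0.0761, and Krt17 0.0344). These ratios do not depend on the scaling.

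Other genes had profiles close to those of the 9. Among 14071 genes that averaged 25 or more counts in the 10 libraries, 2.17% had an r over 0.8 with the luminal profile and 2.05% with the basal profile, and the median r was -0.05 and -0.04. The 5 nearest to the luminal profile, members aside, were Cdh1, the gene of E-cadherin (0.991), Cgn, of the tight junction protein cingulin (0.976), the serine protease gene St14 (0.976), the receptor gene Erbb3 (0.973), and Stc2 (0.971). The 5 nearest to the basal profile were Col17a1, a collagen of the hemidesmosome (0.989), Sox12 (0.970), the basal keratin Krt15 (0.962), Cblc (0.961), and Nxf7 (0.961). Cdh1, Cgn, and Erbb3 had higher medians in liver (80.2, 68.3, and 176 CPM) than in the 10 libraries (28.2, 7.40, and 23.6 CPM), so a gene could move with the set without being low in liver.

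Of single members, Epcam was nearest to the tight junction gene Cldn3 (r of 0.993), Elf5 to the epithelial ETS factor gene Ehf (0.990), and Krt17 to Krt15 (0.980). Krt5 and Krt14 were both nearest to Col17a1 (0.972 and 0.981). Csn3 was nearest to Fgg, the gene of a fibrinogen chain (0.966), and had Lcn2, of lipocalin 2, in the third place (0.948). Fgg was 11.7 CPM in the median of the 10 libraries and 4286 CPM in liver. Ltf was nearest to Sptlc3 (0.926), and its likeness to its nearest gene was the lowest of the 9.

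The lists of epithelial genes that were not members moved with the luminal profile to different degrees. Among list genes that averaged 25 or more counts, r with the luminal profile was over 0.8 for 13 of 14 junction and splicing genes (among them Esrp1, 0.966, and Grhl2, 0.919), for 10 of 15 hormone-sensing luminal genes (among them Foxa1, 0.958, and the prolactin receptor gene Prlr, 0.941), for 4 of 16 basal and myoepithelial genes, and for 2 of 6 progenitor and milk genes (Wfdc18, 0.882, and Muc1, 0.854). With the basal profile, 6 of 16 basal and myoepithelial genes were over 0.8, led by Col17a1 and Krt15, as were 12 of 14 junction and splicing, 5 of 15 hormone-sensing luminal, and 2 of 6 progenitor and milk genes, whereas the basal regulator gene Trp63 (0.180) and the oxytocin receptor gene Oxtr (-0.41) were not. The hormone receptor genes Esr1 (0.384) and Pgr (0.437) did not follow the luminal profile closely. These counts can be read beside the 2.17% and 2.05% of all genes.

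**Figure D4:**
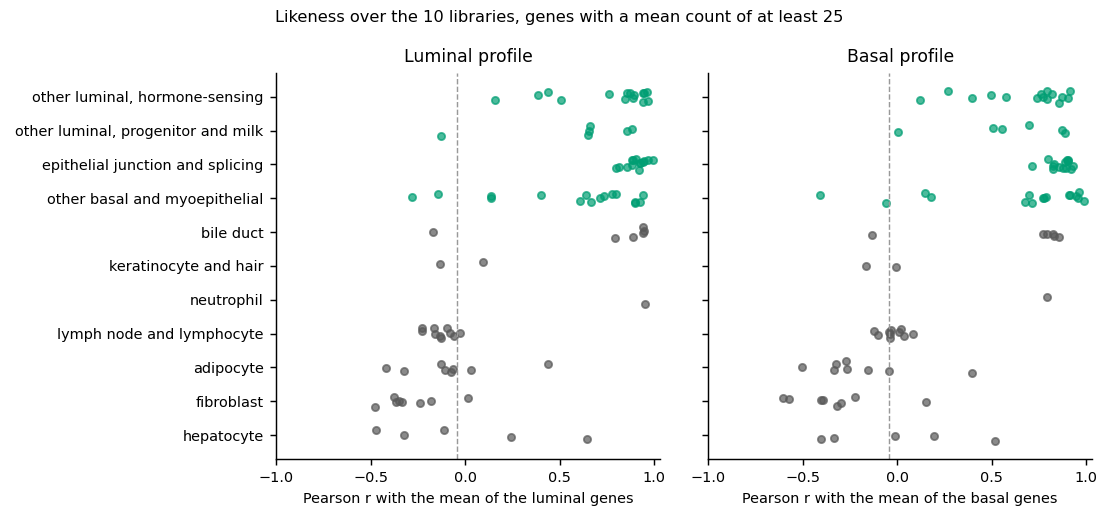
Pearson r with the luminal profile (left) and the basal profile (right) over the 10 libraries, with 1 point per gene that averaged 25 or more counts, by list; green marks mammary and general epithelial lists, grey the other cell types, and the dashed line the median of 14071 genes (-0.05 and -0.04). Junction and splicing genes lie at the right of both panels, and lymphocyte genes near the dashed lines.

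Of the milk protein genes, the other caseins, Lalba, and Wap were low where Csn3 and Ltf were not. Csn1s1 was 0 to 3.87 CPM, Csn2 0 to 1.68 CPM, Lalba 0 to 0.716 CPM, Csn1s2a 0 to 0.716 CPM, and Wap 0 to 0.0817 CPM in the 10 libraries. Csn2, the gene of beta-casein, had no count in 6 of the 10. Of the same list, Wfdc18 was 2.14 to 44.9 CPM in the 10 libraries and at most 0.460 CPM in liver, and Trf, the gene of transferrin, which liver secretes, was 26.1 to 108.5 CPM against 625 to 2329 CPM. HFD ZT 24 replicate 2 was highest for Csn1s1, Csn1s2a, Csn2, and Lalba.

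The markers of other cell types that could hold the members were read in the same libraries. Of 15 keratinocyte and hair genes, 2 (Sbsn and Krtdap) lay above every liver library and 13 overlapped, with a summed level of 6.02 to 44.9 CPM against 1.22 to 6.58 CPM in liver. Sbsn, a gene of differentiating epidermis, was 3.07 to 23.2 CPM in the 10 libraries (median 10.96) and at most 1.57 CPM in liver, and Krtdap was 0.0870 to 1.30 CPM where liver had no count. The differentiation genes Krt1 (at most 1.35 CPM), Flg (at most 0.0432 CPM), and Ivl (at most 0.130 CPM) were lower. AIN93G ZT 24 replicate 2 had the highest sum, with Krt77 at 8.48 CPM and Lor at 9.47 CPM. Only Sbsn and Krt10 of this list averaged 25 or more counts in the 10 libraries, and their r was 0.091 and -0.14 with the luminal and -0.17 and -0.0094 with the basal profile.

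Of 9 neutrophil genes, none lay wholly above or below liver (summed level 5.46 to 46.7 CPM against 4.32 to 46.5 CPM, most of it Lcn2), and the sum had an r of 0.920 with the luminal and 0.748 with the basal profile (Lcn2 0.953 and 0.792). The granule genes Ngp, Camp, and Mpo were at most 0.348 CPM in the 10 libraries, where Ltf was 2.35 CPM or more. Elane, of the granule protease neutrophil elastase, had counts in all 10 (0.122 to 2.62 CPM, median 0.649) and was at most 0.438 CPM in liver. Of 8 bile duct genes, 4 lay above and 2 below every liver library, with a summed level of 51.9 to 344 CPM against 46.3 to 86.1 CPM. This sum followed the members among the 10 libraries, with an r of 0.952 with the luminal and 0.844 with the basal profile, and 4 of 6 genes were over 0.8 with the luminal profile. Cftr had no count in 9 of the 10 libraries, and Krt7, Krt19, and Cldn4 are among those held by the luminal or junction lists too. Krt19, a keratin of ducts, was 29.1 to 238 CPM in the 10 libraries and 0.450 to 13.5 CPM in liver.

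The adipocyte sum, which set the 10 libraries apart, did not follow the members among them (r of 0.08 with the luminal and -0.13 with the basal profile), and AIN93G ZT 20 replicate 1, the lowest for all 9 genes, had 17360 CPM of it. Of 8 fibroblast genes, 8 lay above every liver library (sum of 3112 to 7692 CPM against 207 to 353 CPM), and the same library had the highest sum. The fibroblast sum had an r of -0.34 with the luminal and -0.35 with the basal profile. All 11 lymph node and lymphocyte genes overlapped liver, with a sum of 2.44 to 992 CPM against 3.61 to 10.98 CPM, highest in AIN93G ZT 16 replicate 1, with an r of -0.14 with the luminal profile. The sum was also high in AIN93G ZT 16 replicate 3 (440.5 CPM), AIN93G ZT 20 replicate 3 (259.6 CPM), and HFD ZT 24 replicate 1 (567.6 CPM). It was at most 4.85 CPM in the rest of the 10. The part of these cell types in the spread of the members was not tested.

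At ZT 16 and ZT 20 all 3 AIN93G libraries had Alb under 100 CPM and all 3 HFD libraries were liver libraries, so the diet and the kind of library cannot be told apart there. At ZT 16, Epcam was 31.9, 65.1, and 50.5 CPM on AIN93G (replicates 1 to 3) and 1.16 to 1.53 CPM on HFD. At ZT 20 it was 7.38, 72.6, and 29.4 CPM on AIN93G and 0.891 to 1.15 CPM on HFD. Krt5 and Krt17 had no count in the 6 HFD libraries of these times. At ZT 24, where each diet had 1 liver library, Epcam was 1.22 (AIN93G) and 0.689 CPM (HFD) in it.

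Among the 10 libraries, ZT 20 was compared with ZT 16 on AIN93G (3 against 3). Epcam had a mean of 36.5 ± 33.2 CPM (SD) at ZT 20 and 49.1 ± 16.6 CPM at ZT 16. Krt5 had a mean of 7.40 ± 8.03 and 6.72 ± 3.48 CPM, and Ltf one of 36.5 ± 47.7 and 31.4 ± 20.5 CPM. The libraries of both times overlapped for all 9 genes, where 16.2% of 14071 genes did not overlap. In the edgeR quasi-likelihood test, adjusted over 14071 genes, 0 of the 9 genes passed the threshold of 0.05 (0 at an unadjusted p under 0.05), where 1 gene (0.00711%) did. DESeq2 called 0 of the 8 members it gave an adjusted p (Krt17 had none), where it called 58 of 8837 genes (0.656%). The log2 fold changes ran from -1.05 ± 0.71 (SE) for Krt17 (adjusted p = 0.688) to 0.33 ± 0.96 for Csn3 (adjusted p = 0.922), and that of Epcam was -0.47 ± 0.69 (adjusted p = 0.843). Leaving out 1 library turned the sign for each of the 9 genes but Krt17 (Epcam -1.43 without AIN93G ZT 20 replicate 2 and 0.019 without replicate 1), so no direction is read from these values. The median over the 10 tested lymph node and lymphocyte genes was -2.56, and those over the lists of other epithelial genes were -0.37 to 0.022, where the median of all genes was 0.0064. No gene of these lists passed the threshold.

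HFD was compared with AIN93G at ZT 24 within the libraries with Alb under 100 CPM (2 against 2), the only place where both diets had such libraries. Epcam was 75.3 and 146 CPM on HFD and 30.4 and 67.5 CPM on AIN93G. Krt8 was 237 and 192 CPM on HFD and 82.2 and 97.1 CPM on AIN93G. Krt5 was 17.8 and 31.5 CPM on HFD and 6.83 and 11.03 CPM on AIN93G. Both HFD libraries lay above both AIN93G libraries for 7 of the 9 genes, namely Epcam, Krt8, Krt18, Csn3, Krt5, Krt14, and Krt17, where 19.0% of 14071 genes did the same. Those of Elf5 (8.51 and 41.3 against 10.7 and 14.01 CPM) and Ltf (61.1 and 29.0 against 73.4 and 14.7 CPM) overlapped. The genes mostly rise and fall together over the libraries, so the 7 are not separate observations.

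The edgeR test of this comparison called 0 of 14071 genes (0%) and 0 of the 9 genes, with 1675 genes and 0 members at an unadjusted p under 0.05. DESeq2 called 285 of the 5853 genes that it gave an adjusted p (4.87%) and 0 of the 4 members among them (Epcam, Krt8, Krt18, and Ltf). All 9 log2 fold changes were above 0, though those of Elf5 and Ltf were not when 1 of the 4 libraries was left out. They ran from 0.076 ± 1.33 (SE) for Ltf (adjusted p = 0.986) to 1.59 ± 0.99 for Krt14 (adjusted p = 0.493). Those of Epcam, 1.21 ± 0.86 (adjusted p = 0.539), and Krt8, 1.30 ± 0.77 (adjusted p = 0.477), were under 2 standard errors. With 2 libraries a group, none of these differences was told apart from the spread. Without HFD ZT 24 replicate 2 the value was 0.66 for Epcam and 0.55 for Csn3, and without AIN93G ZT 24 replicate 2 it was 1.89 for Epcam and 2.33 for Krt17.

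Other lists had their own values in the same comparison. The median log2 fold change was 0.98 over 14 junction and splicing genes, 0.94 over 15 hormone-sensing luminal genes, 0.91 over 6 bile duct genes, 0.87 over 16 basal and myoepithelial genes, and 0.61 over 6 progenitor and milk genes, where that of all genes was 0.044. It was 6.18 over 10 lymph node and lymphocyte genes, 0.31 over 8 fibroblast, -0.37 over 8 adipocyte, and -0.63 over 5 hepatocyte genes. The 2 keratinocyte and hair genes tested had a median of -0.54, and the 1 neutrophil gene tested, Lcn2, had 0.96. No gene of these lists passed the threshold. The lymph node and lymphocyte sum was 568 CPM in HFD ZT 24 replicate 1 and 3.33 CPM in replicate 2, against 2.44 and 3.80 CPM on AIN93G, so 1 library carried that difference. The part of these lists in the differences of the 9 genes was not tested.

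Any difference among the 4 groups was tested in the same fit. edgeR called 5 genes (0.0355%) and 0 of the 9. Krt17 had the smallest p of the 9, 0.0243 unadjusted and 0.444 adjusted by edgeR, and DESeq2 placed it, and no other member, past the threshold (adjusted p = 0.0365), where it called 606 of 13995 genes (4.33%). Its levels were 6.13, 3.14, and 1.74 CPM at AIN93G ZT 16, 0.499, 3.45, and 1.61 CPM at AIN93G ZT 20, 2.79 and 6.70 CPM at AIN93G ZT 24, and 10.98 and 16.6 CPM at HFD ZT 24. The HFD ZT 24 pair lay above the other 8 libraries for Krt17 and also for Epcam, Krt18, Krt5, and Krt14, which is 5 of the 9 genes, where 3.63% of 14071 genes did the same. These genes move together over the 10 libraries (r of 0.968 for Krt5 and Krt14), and the pair is 2 mice. The 5 genes are therefore not separate observations.

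**Figure D5:**
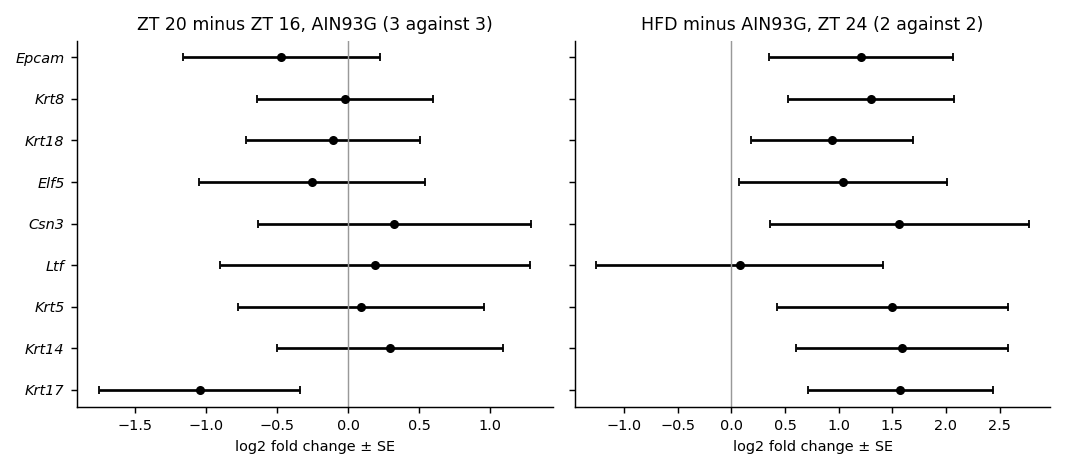
Log2 fold change with its SE (edgeR) for the 9 genes in the libraries with Alb under 100 CPM, for ZT 20 against ZT 16 on AIN93G (left) and HFD against AIN93G at ZT 24 (right); 0 is no difference. All 9 points lie above 0 on the right, from 0.076 to 1.59, and none passed the threshold in either panel.

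In liver itself, only Krt8 and Krt18 averaged 25 or more counts in the fits, so the other 7 genes were not tested there in the main fits. With no filter, or with the filter over 42 libraries, those with any count in a fit were included. They passed the filter over 42 libraries only through the 10 libraries in which they are high. Over ZT 0 to ZT 12 (12 libraries per diet), the log2 fold change of HFD against AIN93G was 0.063 ± 0.088 (SE) for Krt8 (adjusted p = 0.894) and -0.032 ± 0.13 for Krt18 (adjusted p = 0.971). edgeR called 22 of 12009 genes (0.183%) and neither of these 2, and DESeq2 called 93 of 12001 genes (0.775%) and neither. Neither had an unadjusted p under 0.05. The edgeR count was 2 to 160 when 1 library was left out (160 without AIN93G ZT 12 replicate 1). At ZT 8, where 1 gene (0.00833%) passed the threshold and the difference of Krt8 was the largest of the 4 times, its levels were 192 to 212 CPM on HFD and 142 to 201 CPM on AIN93G, and the log2 fold change was 0.30 ± 0.18 (adjusted p = 0.504). The time point passed the threshold for 755 genes (6.29%) over both diets, and not for Krt8 (adjusted p = 0.643) or Krt18 (adjusted p = 0.579). Over the 18 HFD liver libraries of ZT 0 to ZT 20 it did so for 325 of 12008 genes (2.71%), and not for Krt8 (adjusted p = 0.785) or Krt18 (adjusted p = 0.698). The diet difference did not change with time point past the threshold for either gene (edgeR, 0 of 12009 genes, with 705 at an unadjusted p under 0.05).

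The low levels of the other genes in liver were uneven. Epcam had 6 to 48 counts in all 32 liver libraries, Elf5 had 174 counts in all, and Ltf had 56. Krt14 had 42 counts over 10 liver libraries, all of them at ZT 0 to ZT 12, as were 24 of the 32 liver libraries. The 3 liver libraries with the most Krt14 were also the 3 with the most of the adipocyte gene Adipoq, with 11 counts and 5.6 CPM of Adipoq in AIN93G ZT 4 replicate 3, 10 counts and 0.913 CPM in AIN93G ZT 8 replicate 2, and 5 counts and 0.785 CPM in AIN93G ZT 12 replicate 3. The part of this trace in the Krt14 counts was not tested. Krt5 had 4 counts over 2 libraries. At these counts, differences between the diets or times in liver could be missed for the 3 basal genes and Csn3.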

How the data were processed

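RNA sequencing of poly(A) RNA from 42 mice, 3 per diet and time point, was used. The authors deposited raw counts of reads, 1 row per gene and 1 column per library. Per the labels' processing notes, fastp, STAR, and HTSeq 0.6.1 were used with mm10. The library kit does not mark strand. Groups were taken from the sample records, and replicate numbers follow record order and pair no samples. Every column of counts was mapped to a sample. The 9 genes, the marker lists, and the division at 100 CPM of Alb were chosen with earlier results of these data known.

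CPM were computed in R 4.3.3 with TMM factors over the 42 libraries (edgeR 4.0.16). Tests were edgeR quasi-likelihood F-tests on counts, for genes that averaged 25 or more counts in a fit, with Benjamini-Hochberg adjusted p under 0.05, and were checked on simulated counts. The SE of a log2 fold change is its size divided by the square root of F. DESeq2 1.42.0, library size alone, no filter, a filter over 42 libraries, fits of the compared libraries alone, leaving out each library, and limma 3.58.1 voom with and without a block were the alternatives. Likeness is Pearson r of log2 CPM (prior count 2) over 10 libraries. Genes named are the 9, members of the lists, and the 5 nearest to each profile and gene. Transcripts for shared stretches of 50 bases came from GENCODE M21. Promoter windows came from RefSeq. Total counts were 14592481 to 21368409, and counts of 3 or fewer were treated as a floor.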

Additional observations from a re-analysis of the deposited data

Results flagged for a closer look

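Among the 10 libraries with Alb under 100 CPM, AIN93G ZT 20 replicate 1 stood apart at the low end for 3 of the 9 genes. Its gap to the next library, as a share of the whole range in log2 CPM, was 0.475 for Krt8, 0.471 for Krt18, and 0.492 for Ltf, each above Dixon's critical value for 10 samples. Chance flags about 1 in 20 groups, and the 9 genes share the library. It was also the deepest of the 42 libraries, with 21368409 counts.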

How the results depend on the processing

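No member changed sides of the threshold, except Krt17 in the test of any difference among the 4 groups (1 member past it by DESeq2, adjusted p = 0.0365). The number of all genes past the threshold was less stable. With DESeq2 it was 58 for ZT 20 against ZT 16, 285 for diet at ZT 24, and 606 for any difference among the 4 groups. In liver DESeq2 called 93 for the mean diet difference, 15 at ZT 0, 38 at ZT 8, 7 at ZT 12, 1502 for time point, and 1551 for time point on HFD. With no filter the numbers were 3, 56 (any difference), 207, 51 (ZT 0), 16 (ZT 4), 161 (ZT 8), 68 (ZT 12), 1713, and 2333. By library size alone they were 2 for ZT 20 against ZT 16 and 3 for any difference. With the compared libraries alone they were 0 for ZT 20 against ZT 16, 9 at ZT 0, and 0 at ZT 8. With limma voom, added after seeing the data, the mean diet difference had 6 and ZT 8 had 2. The cause was not tested.

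Leaving out 1 library at a time gave 0 to 1 (ZT 20 against ZT 16), 0 to 1 (diet at ZT 24), 0 to 8 (any difference), 2 to 160 (mean diet difference in liver, highest without AIN93G ZT 12 replicate 1), 0 to 4 (ZT 0), 0 to 55 (ZT 8), 0 to 31 (ZT 12), 381 to 1239 (time point), and 170 to 1079 (time point on HFD), and 5 to 7 of the 9 genes wholly above liver. The last was chosen after seeing the data. The r of the luminal and basal profiles was 0.723 to 0.916.

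No log2 fold change of a member that changed sign was past the threshold. For ZT 20 against ZT 16, leaving out 1 library gave -1.43 to 0.019 (Epcam), -0.98 to 0.46 (Krt8), -1.0 to 0.38 (Krt18), -1.31 to 0.26 (Elf5), -1.76 to 0.86 (Csn3), -1.76 to 0.75 (Ltf), -1.21 to 0.63 (Krt5), -0.88 to 0.83 (Krt14), and, with no change of sign, -1.84 to -0.42 (Krt17), and library size alone gave -0.063 for Krt5. There limma voom gave -0.44 (Csn3), -0.73 (Krt5), and -0.63 (Krt14). For diet at ZT 24, leaving out 1 library gave -0.50 to 1.72 (Elf5) and -0.66 to 1.67 (Ltf), and, with no change of sign, 0.66 to 1.89 (Epcam), 0.55 to 2.11 (Csn3), 1.08 to 2.33 (Krt17), 1.04 to 1.88 (Krt5), and 1.02 to 1.95 (Krt14), and for diet in liver -0.11 to 0.035 (Krt18). Where an arm was left with 1 library, it was assumed to vary like the other groups. A division at 10 CPM of Alb held no library, and those at 1000 CPM of Alb and 100 CPM of Adipoq held the same 10.

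The titles carry a first number whose meaning is not given, and which some libraries of different groups share. No 2 groups share more than 1 of these numbers and the diets share none, so the number was used as a random replicate block in limma voom, chosen after seeing the data. With the replicate block, time point on HFD passed for 508 genes, against 370 by limma voom without it, time point over both diets for 608 against 635, the mean diet difference for 7 against 6, and ZT 8 for 2 against 2, with no member past the threshold. The deviations of linked libraries from their group means had an r of -0.30 to 0.087 in the fit of ZT 0 to ZT 12 and 0.013 to 0.22 in the HFD fit. The correlation that the block model estimated was -0.042 and 0.26 in these fits. The samples were not taken as paired, though every linked pair of the HFD fit had an r above 0. Among the 10 libraries, 1 pair (AIN93G ZT 16 replicate 2 and ZT 20 replicate 3, r of -0.57) shared a number, and the block could not be fitted.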
